A study of Rattus norvegicus with 6 samples.

Results

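Myc and 4 nucleolar genes of ribosome production were followed in cultured rat heart muscle cells treated with antiretroviral drugs (ARVs). The genes were Myc, Npm1, Mybbp1a, Tcof1 and Rrp1b. They were chosen by name from the table of differentially expressed genes, and all 5 were found among its 1756 genes. The cells were neonatal rat ventricular cardiomyocytes (NRVCs) of Harlan Sprague–Dawley rats aged 2 to 3 days, isolated by pre-plating and kept in medium low in serum. There were 3 libraries of cells that received Ritonavir, Abacavir, Atazanavir and Lamivudine at 5 µM for 24 h, and 3 of cells that received the solvent DMSO for 24 h. Ritonavir and Atazanavir block the HIV protease, and Abacavir and Lamivudine block its reverse transcriptase. The comparison asked which genes respond to the cocktail in heart muscle cells. Separate preparations of cells for each library are not stated. The p-values here set a difference between groups against the spread between these libraries, which may be only technical.

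Ribosomes are assembled in the nucleolus, where RNA polymerase I transcribes the ribosomal RNA precursor and many proteins cut, modify and fold it together with ribosomal proteins. The transcription factor MYC, with its partner MAX, binds the sequence CACGTG, called the E-box, and is known for raising the transcription of nucleolar and ribosomal genes in growing cells, including heart muscle cells that enlarge. Nucleophosmin (Npm1) is an abundant nucleolar chaperone for histones and ribosomal particles, and treacle (Tcof1) is a scaffold for RNA polymerase I that is known from the inherited Treacher Collins syndrome. Myb-binding protein 1a (Mybbp1a) takes part in ribosomal RNA transcription and processing, and Rrp1b is a nucleolar relative of yeast Rrp1, which in yeast acts in the processing of large subunit RNA.

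The promoters are shown because 4 of the 5 genes encode nucleolar proteins of the kind MYC is known to control, and the E-box is its binding sequence. Of the 5 genes, 4 matched the RefSeq promoter table of build GRCr8, which holds 300 bases per gene, 250 before and 50 after its start site. Positions -200 to 10 relative to the start site are printed 5′ to 3′ on the strand of the gene. Npm1 lies at chr10:18255732-18255941 (minus strand), Mybbp1a at chr10:57555258-57555467 (plus), Tcof1 at chr18:56570718-56570927 (minus) and Rrp1b at chr20:10122625-10122834 (plus). Capitals mark CACGTG in Mybbp1a and CACGCG, a variant with a single changed letter, in Rrp1b.
Npm1: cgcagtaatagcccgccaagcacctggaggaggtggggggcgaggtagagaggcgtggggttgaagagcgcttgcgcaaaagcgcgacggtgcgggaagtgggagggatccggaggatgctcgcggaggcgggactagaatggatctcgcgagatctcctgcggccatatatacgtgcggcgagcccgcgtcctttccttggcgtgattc
Mybbp1a: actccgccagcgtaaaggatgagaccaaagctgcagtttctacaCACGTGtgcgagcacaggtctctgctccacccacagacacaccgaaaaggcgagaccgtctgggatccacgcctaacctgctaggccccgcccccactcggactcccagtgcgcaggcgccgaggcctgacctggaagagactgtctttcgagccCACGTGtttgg
Tcof1: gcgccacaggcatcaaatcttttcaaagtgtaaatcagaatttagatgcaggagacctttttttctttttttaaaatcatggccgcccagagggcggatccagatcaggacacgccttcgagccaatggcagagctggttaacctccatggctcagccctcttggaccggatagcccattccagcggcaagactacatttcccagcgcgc
Rrp1b: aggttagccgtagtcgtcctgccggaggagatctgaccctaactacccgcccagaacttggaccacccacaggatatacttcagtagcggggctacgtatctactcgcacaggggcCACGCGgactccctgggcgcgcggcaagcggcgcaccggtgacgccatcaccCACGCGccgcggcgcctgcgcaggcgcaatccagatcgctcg

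Both motifs were searched on both strands. CACGTG reads the same on either strand, CACGCG was also searched as CGCGTG, and the matches did not overlap. The Mybbp1a promoter held CACGTG at 2 places, whose first bases lay at positions -156 and -1 relative to the start site. The promoters of Npm1, Tcof1 and Rrp1b held no CACGTG in this window. CACGTG was found in 2148 of all 33469 promoters (6.42%), and in 1533 of 21851 promoters of protein-coding genes (7.02%). Rrp1b held CACGCG at 3 places, of which 2 were in the printed window, at positions -84 and -32, and the other began at position 22. CACGCG was found in 8.5% of all promoters and in 10.9% of those of protein-coding genes. A match is a string of letters and was not measured as a binding site.

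The deposited table gave read counts, read counts divided by a size factor of the authors for each library, here called normalized read counts, and FPKM, which is reads scaled by the length of the gene and the total of the library. It held only genes that had passed the authors' own test on these same libraries, so a passed test here is no separate evidence of a change. The values describe its size and spread, but that choice favours genes with large differences and small spreads. Fold changes may thus be too large, and standard errors and adjusted p-values too small. The listed genes took 4329218 to 5271521 reads in the ARVs libraries and 4871069 to 5871352 in the DMSO libraries, out of 17347680 to 21049515 and 18281189 to 22126119 reads by the FPKM values. DMSO replicate 2 stood apart: over the listed genes the chi-square of its counts, per degree of freedom, was 29.3 against DMSO replicate 1 and 32.01 against DMSO replicate 3, where pairs of ARVs libraries gave 4.84 to 6.44 and DMSO replicates 1 and 3 gave 5.54. Changes were tested with edgeR's quasi-likelihood test on the read counts with the authors' size factors, and p-values were adjusted (Benjamini-Hochberg) over the 1751 genes left by a filter on low counts, which all 5 genes passed.

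With ARVs, Myc, Npm1, Mybbp1a and Tcof1 were higher and Rrp1b was lower. Myc rose most, by 60.02%, Npm1, Mybbp1a and Tcof1 rose by 14.5%, 16.3% and 18.7%, and Rrp1b fell by 18.5%. Thus 4 of the 5 genes were called higher, where 39.9% of the 1751 tested genes were, and 1 was called lower, where 60.1% were. With median-ratio factors, an alternative scaling computed over the genes of the table, 699 genes were called higher and 536 lower, so that 56.6% of the calls were higher. These factors assume that most genes do not change, while the table holds only called genes. The groups did not overlap in any of the 5, of which 4 lay higher and 1 lower, where this held for 96.1% of the tested genes, 39.3% higher and 56.8% lower. All 5 passed the test, and so did 100% of the tested genes, so that passing says nothing particular about these genes. In bulk RNA, fewer cells of a type and less RNA per cell cannot be told apart.

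**Figure D1:**
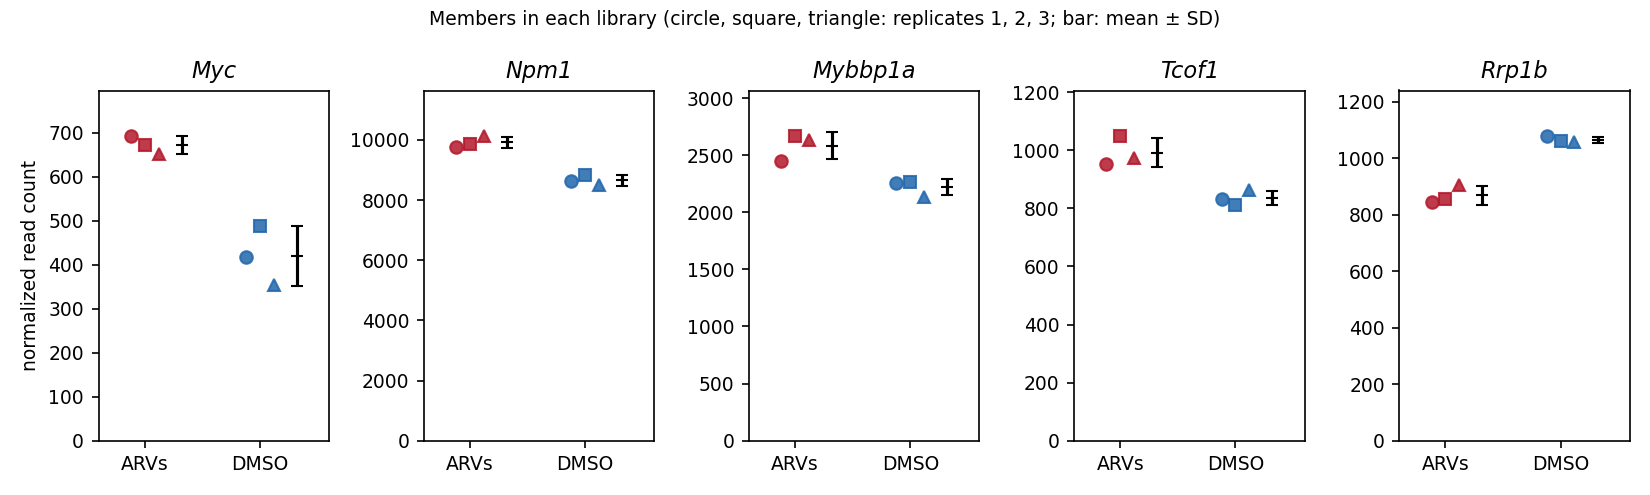
Normalized read counts (vertical axis, from 0) of the 5 genes in the 3 ARVs and the 3 DMSO libraries; symbols mark replicates 1, 2 and 3, and bars give the mean ± SD. Myc lay between 652 and 693 with ARVs and between 354 and 489 with DMSO, and Rrp1b was the gene with its ARVs libraries below its DMSO libraries.

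Myc (ENSRNOG00000004500), on chromosome 7 from 102586313 to 102591240 on the plus strand in the annotation of release 97, is the transcription factor of the set. It had 693, 673 and 652 normalized read counts in ARVs replicates 1, 2 and 3, against 417, 489 and 354 in DMSO replicates 1, 2 and 3. The lowest ARVs library was 1.33 times the highest DMSO library, and DMSO replicate 2, the library that stood apart, was the closest to the treated cells. The mean was 673 ± 20.2 with ARVs and 420 ± 67.8 with DMSO (SD, n = 3 each), which gave a log2 fold change of 0.68 (standard error, SE, 0.11; adjusted p = 0.0011, edgeR). Its change was larger than that of 88.6% of the 699 genes called higher, whose median log2 fold change was 0.32. Without DMSO replicate 2 the log2 fold change was 0.80, and without DMSO replicate 3 it was 0.57. The DMSO libraries of Myc varied by 16.2% (coefficient of variation), where counting error alone gives 4.89%, and the ARVs libraries by 3.0%, where counting error gives 3.9%.

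Npm1 (ENSRNOG00000004616) lies on chromosome 10 from 18080950 to 18090950 on the minus strand and had the most reads of the 5 genes. It had 9773, 9851 and 10122 normalized read counts in ARVs replicates 1, 2 and 3, against 8635, 8845 and 8490 in DMSO replicates 1, 2 and 3. The groups were apart by a narrow margin, the lowest ARVs library being 1.10 times the highest DMSO library. The mean was 9915 ± 183 with ARVs and 8656 ± 179 with DMSO (SD, n = 3 each), which gave a log2 fold change of 0.20 (SE 0.04; adjusted p = 0.00305, edgeR). This was a small change beside the other genes called higher, of which 5.87% had a smaller one. In RefSeq, a gene for a long noncoding RNA, LOC102546482, overlaps Npm1 on build GRCr8, and the sources do not say whether reads were counted by strand, so reads of these genes may not be told apart.

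Mybbp1a and Tcof1, which act in ribosomal RNA transcription, changed by amounts close to that of Npm1. Mybbp1a (ENSRNOG00000015236; chromosome 10 from 59000397 to 59010903, plus strand) had 2447, 2666 and 2634 normalized read counts in ARVs replicates 1, 2 and 3, against 2255, 2269 and 2137 in DMSO replicates 1, 2 and 3. All ARVs libraries were above all DMSO libraries, and ARVs replicate 1 was the nearest to them, at 1.08 times the highest DMSO library. The log2 fold change was 0.22 (SE 0.05; adjusted p = 0.00437, edgeR), with means of 2582 ± 118 with ARVs and 2221 ± 72.4 with DMSO (SD, n = 3 each). Tcof1 (ENSRNOG00000026108; chromosome 18 from 56082195 to 56115593, minus strand) had 952, 1049 and 975 normalized read counts with ARVs, against 831, 813 and 863 with DMSO. Here ARVs replicate 2 was the highest and the other ARVs libraries lay nearer to DMSO. The mean was 992 ± 50.7 with ARVs and 836 ± 25.4 with DMSO (SD, n = 3 each), which gave a log2 fold change of 0.25 (SE 0.06; adjusted p = 0.00507, edgeR).

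Rrp1b was the member that fell. Rrp1b (ENSRNOG00000001194) lies on chromosome 20 from 10844266 to 10869821 on the plus strand. It had 844, 857 and 905 normalized read counts in ARVs replicates 1, 2 and 3, against 1079, 1062 and 1056 in DMSO replicates 1, 2 and 3. The DMSO libraries were very close to each other, with a coefficient of variation of 1.09%, and the highest ARVs library was 0.857 times the lowest of them. The mean was 869 ± 32.3 with ARVs and 1066 ± 11.6 with DMSO (SD, n = 3 each), which gave a log2 fold change of -0.30 (SE 0.06; adjusted p = 0.00189, edgeR). With median-ratio factors, under which log2 fold changes were higher by a median of 0.199, it was -0.10 and did not pass (adjusted p = 0.219, edgeR). With the library totals from the FPKM values, which are not computed over called genes alone, it was -0.27 and passed (adjusted p = 0.00277, edgeR). The median log2 fold change of the 1052 genes called lower was -0.47, and 26.0% of them had a smaller change than Rrp1b.

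**Figure D2:**
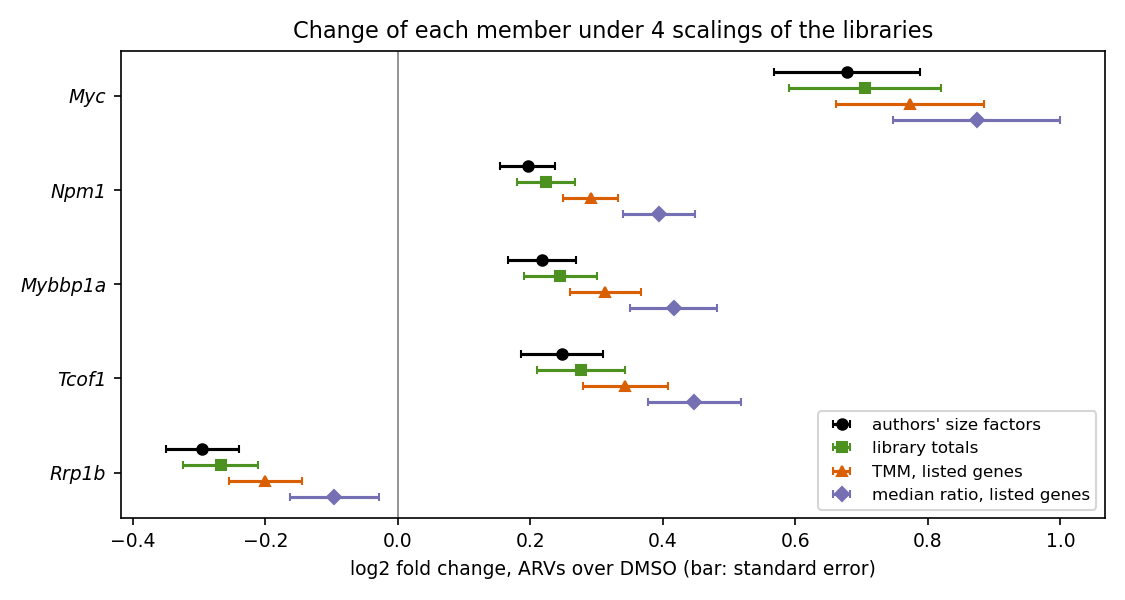
Log2 fold change of each gene, ARVs over DMSO, with its standard error (horizontal axis) under 4 scalings of the libraries, with the authors' size factors on top. Myc, Npm1, Mybbp1a and Tcof1 were above 0 and Rrp1b below 0 under each of the 4, and Rrp1b came nearest to 0 with median-ratio factors, at -0.10.

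The levels per length, in FPKM, differed widely between the genes. Npm1 was far above the rest, at 420 ± 6.51 FPKM with ARVs and 359.6 ± 11.1 with DMSO (SD, n = 3 each), and ranked 72 among the 1756 listed genes by its mean over the 6 libraries. Mybbp1a followed with 31.2 ± 1.603 FPKM with ARVs and 26.3 ± 0.969 with DMSO, and then Myc with 27.0 ± 0.942 and 16.5 ± 2.82 FPKM (ARVs and DMSO, SD, n = 3 each). Mybbp1a was above Myc in every library, with no overlap within a group: the lowest Mybbp1a value was 29.5 FPKM with ARVs and 25.3 FPKM with DMSO, where the highest Myc value was 27.7 and 19.5 FPKM. The lowest levels were those of Tcof1 and Rrp1b, and their order differed between the groups. With ARVs, Tcof1 had 11.7, 13.1 and 11.9 FPKM and Rrp1b 9.89, 10.2 and 10.5 FPKM in replicates 1, 2 and 3. With DMSO, Tcof1 had 9.94, 9.99 and 10.5 FPKM and Rrp1b 12.3, 12.4 and 12.2 FPKM. Tcof1 was thus the higher of the pair in each ARVs library and the lower in each DMSO library.

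Ratios of read counts between 2 genes within a library do not depend on how the libraries are scaled, and they parted the set into 3: Myc, the trio of Npm1, Mybbp1a and Tcof1, and Rrp1b. Within the trio, the log2 ratios differed between ARVs and DMSO by -0.02 (Npm1 to Mybbp1a), -0.05 (Npm1 to Tcof1) and -0.03 (Mybbp1a to Tcof1). These differences were smaller than the SD of the ratios between libraries, which reached 0.06, 0.08 and 0.09, and the groups overlapped in all 3 pairs. Against Rrp1b, the ratios of the trio were higher with ARVs by 0.49 for Npm1, 0.51 for Mybbp1a and 0.54 for Tcof1, with no overlap between the groups. In every pair with Rrp1b, the lack of overlap followed from the genes themselves, whose groups did not overlap and which moved in opposite directions. The log2 ratio of Npm1 to Rrp1b was 3.53, 3.52 and 3.48 in ARVs replicates 1, 2 and 3, against 3.00, 3.06 and 3.01 in DMSO replicates 1, 2 and 3. Myc rose more than the trio in every pairing: its log2 ratio to Npm1, Mybbp1a and Tcof1 was higher with ARVs by 0.50, 0.47 and 0.45. The SD of these ratios between the DMSO libraries was 0.20, 0.19 and 0.28. For Myc to Tcof1 the groups nearly met, at -0.64 in ARVs replicate 2 and -0.73 in DMSO replicate 2. Without DMSO replicate 3 that difference was 0.305. In plain reads, each Myc read came with 14.1, 14.6 and 15.5 Npm1 reads in ARVs replicates 1, 2 and 3, against 20.7, 18.1 and 24.0 in DMSO replicates 1, 2 and 3. The ratio of Myc to Rrp1b had the widest gap of the 10 pairs, 0.99 on the log2 scale, or 1.98-fold. The ratios are given as values per library and were not tested, and pairs of other listed genes were not compared.

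**Figure D3:**
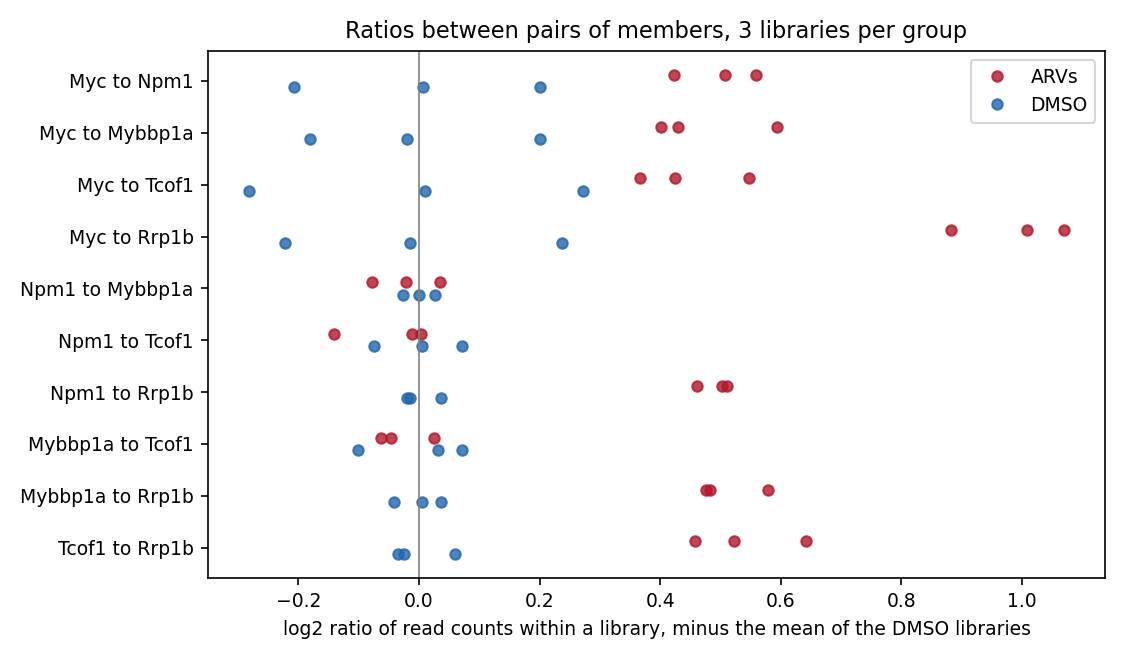
Log2 ratio of the read counts of 2 genes within each library, after subtraction of the mean over the DMSO libraries (horizontal axis), for the 10 pairs of genes; each point is a library. The ARVs and DMSO points overlapped in the 3 pairs among Npm1, Mybbp1a and Tcof1 and were apart in the other 7 pairs, the most in Myc to Rrp1b.

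The table held few other genes of ribosome production. From 4 lists that hold 196 genes of RNA polymerase I, of RNA precursor processing, of subunit assembly and of the exosome, 11 were in the table, members included, of which 9 were higher and 2 were lower with ARVs. Without the members, 6 of 7 were higher and the median log2 fold change was 0.29, where 39.9% of all tested genes were higher and their median was -0.25. Genes of these lists outside the table were not analysed here. Exosc5, a subunit of the RNA exosome that trims RNA precursors, had the largest rise, with 271, 305 and 289 normalized read counts in ARVs replicates 1, 2 and 3, against 164, 217 and 163 in DMSO replicates 1, 2 and 3 (log2 fold change 0.67, SE 0.14; adjusted p = 0.00274, edgeR). Aatf, Wdr46 and Nol6, all factors of small subunit assembly, had log2 fold changes of 0.34, 0.30 and 0.29 (SE 0.08, 0.07 and 0.07). Polr2e, a subunit shared by the 3 kinds of nuclear RNA polymerase, and Nop53, a factor of large subunit assembly, had log2 fold changes of 0.20 each (SE 0.04 and 0.05), close to Npm1. Ngdn, a protein of the small subunit processome, went the other way: it had 426, 521 and 419 normalized read counts with ARVs, against 690, 614 and 732 with DMSO (log2 fold change -0.57, SE 0.11; adjusted p = 0.00178, edgeR). Beside Rrp1b it was the other gene of these lists that fell.

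Ribosomal proteins of the cytosol and of the mitochondrion were found on opposite sides. Of 83 genes of cytosolic ribosomal proteins, 11 were in the table, 10 of them higher and 1 lower (median log2 fold change 0.20). Of all tested genes, 39.9% were higher and 60.1% lower, with a median log2 fold change of -0.25. Rps12 had 6439, 7036 and 7025 normalized read counts in ARVs replicates 1, 2 and 3, against 5450, 5096 and 5210.0 in DMSO replicates 1, 2 and 3 (log2 fold change 0.38, SE 0.05; adjusted p = 5.24e-04, edgeR). All ARVs libraries of Rps12 were above all DMSO libraries. Rps2, Rpl35, Rpl28 and Rps15 had log2 fold changes of 0.27, 0.21, 0.19 and 0.17 (SE 0.04 to 0.06). Genes of ribosomal proteins have many near-identical processed copies in mammalian genomes, and how reads that map to several places were counted is not given in the sources used here, so these values are uncertain to that extent. The lower gene, Rpl22l1, named after its values were seen, had a log2 fold change of -0.25 (adjusted p = 0.00898, edgeR) and did not pass with TMM over the listed genes (adjusted p = 0.0707). Of 79 genes of mitochondrial ribosomal proteins, 7 were in the table and each of the 7 fell, at a median log2 fold change of -0.29. This median was close to that of all tested genes. Mrpl12 fell most of these, with 2447, 2328 and 2383 normalized read counts with ARVs, against 3168, 2875 and 3474 with DMSO (log2 fold change -0.41, SE 0.07; adjusted p = 0.0013, edgeR). Dap3, Mrps25, Mrpl3, Mrpl50, Mrpl35 and Mrpl45 had values between -0.34 and -0.23. All 7 stayed below 0 with median-ratio factors, where 1 of them passed the test.

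**Figure D4:**
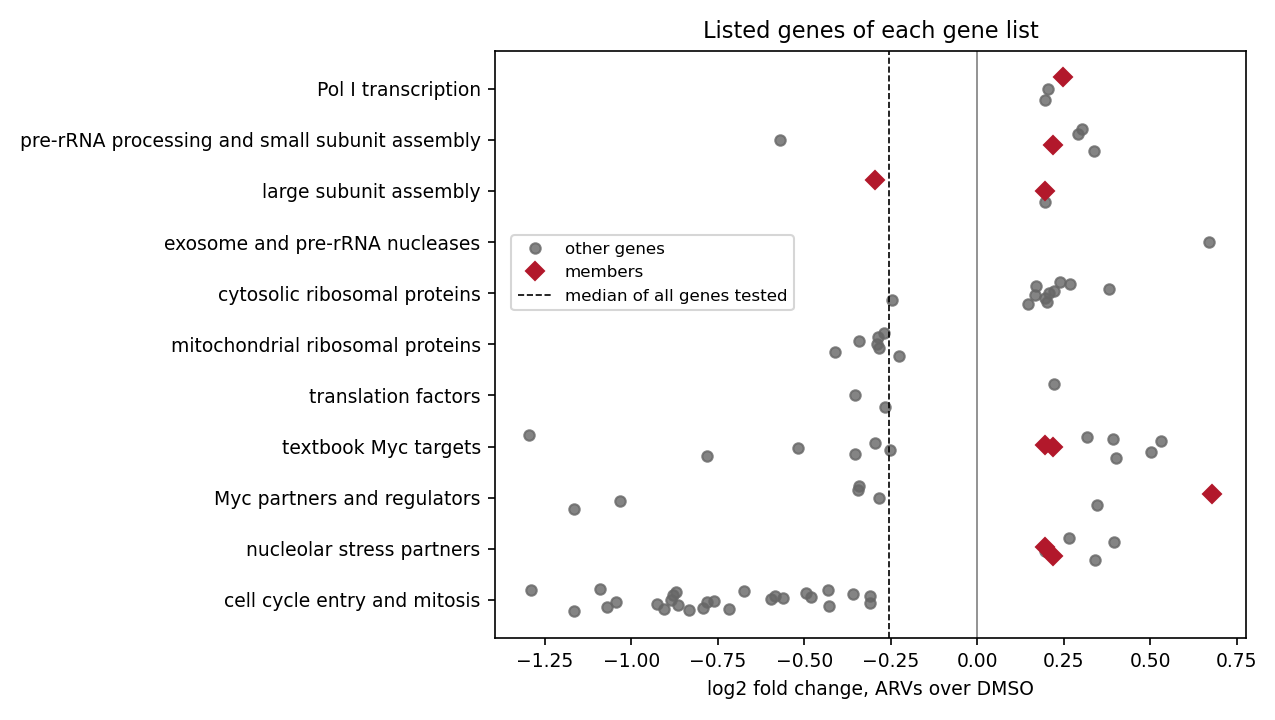
Log2 fold change, ARVs over DMSO (horizontal axis), of every gene of 11 gene lists that was in the table; diamonds are Myc, Npm1, Mybbp1a, Tcof1 and Rrp1b, circles the other genes, and the dashed line is the median of all tested genes, -0.25. Of the cytosolic ribosomal proteins 10 of 11 lay above 0, and all 7 mitochondrial ribosomal proteins lay below 0, where 39.9% of all tested genes were higher and 60.1% lower.

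Genes that act with Myc or on it went both ways. Of 39 partners and regulators, 7 were in the table, 2 higher, of which 1 was Myc itself, and 5 lower, where 60.1% of all tested genes were lower. With median-ratio factors, 3 of the 5 passed as lower. Max, the partner of MYC, was not among them and was not analysed here. Aurka is a mitotic kinase and Cip2a a phosphatase inhibitor, and both are reported to protect proteins of the MYC family from breakdown. Aurka and Cip2a had log2 fold changes of -1.17 and -1.03 (SE 0.09 and 0.16). Aurka had 340, 307 and 298 normalized read counts in ARVs replicates 1, 2 and 3, against 647, 736 and 740 in DMSO replicates 1, 2 and 3. Usp28, a ubiquitin protease that removes ubiquitin from MYC, had a log2 fold change of -0.34, Mycbp, a MYC-binding protein, one of -0.35, and Fubp1, which binds a far upstream element of the MYC gene, one of -0.28 (SE 0.06 each). Bin1, which binds MYC and holds it back, rose by 0.35 (SE 0.09, adjusted p = 0.00629, edgeR).

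Genes often used as MYC targets went both ways. The table held 13 of 61 such genes, 7 higher and 6 lower, and without Npm1 and Mybbp1a, which are on this list, 5 higher and 6 lower, where 39.9% of all tested genes were higher. Slc1a5 and Slc3a2, parts of amino acid transporters, and Cad, an enzyme of pyrimidine synthesis, had log2 fold changes of 0.53, 0.39 and 0.40 (SE 0.06, 0.05 and 0.06). Cad had 1518, 1487 and 1429 normalized read counts in ARVs replicates 1, 2 and 3, against 1079, 1180 and 1103 in DMSO replicates 1, 2 and 3. Gadd45a, a gene of DNA damage and stress that MYC is known to repress, rose by 0.50 (SE 0.09). It is among the 7 higher genes, so these counts do not separate genes that MYC raises from genes that it represses. Tfrc, the transferrin receptor, fell by 1.29 on the log2 scale, with 3627, 4023 and 4342 normalized read counts with ARVs, against 11477, 6796 and 11148 with DMSO, where DMSO replicate 2 again lay nearest to the ARVs libraries. Eif4e, the cap-binding translation factor, had, on the log2 scale, a change of -0.35 (SE 0.06; adjusted p = 9.37e-04, edgeR). Of 51 translation factors, 3 were in the table: Eif4e and Eif2b4 (-0.27) were lower and Pabpc1, the poly(A)-binding protein, was higher (0.22).

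Genes of the cell cycle, which MYC is known to drive, moved opposite to Myc. Of 39 genes of cycle entry, replication and mitosis, 27 were in the table and each of the 27 fell, with the median log2 fold change at -0.78, and 22 passed with median-ratio factors. Of all tested genes, 60.1% were lower, and the median log2 fold change was -0.25. A link of these genes to Myc was not tested. Top2a, which untangles DNA when cells divide, had 1507, 1484 and 1454 normalized read counts in ARVs replicates 1, 2 and 3, against 3320, 3039 and 3114 in DMSO replicates 1, 2 and 3. Rrm2 and Rrm1, the subunits of ribonucleotide reductase, had log2 fold changes of -1.29 and -0.68, and Ccnb1, Aurka and Bub1b, genes of mitosis, had -1.07, -1.17 and -0.91 (SE 0.05 to 0.09 for these 5). Of 18 genes of the response to nucleolar stress, 6 were listed and each of the 6 rose, Npm1, Mybbp1a and Nop53 among them, where 39.9% of all tested genes were higher. Without the members Npm1 and Mybbp1a, 4 of 4 rose. Sesn2, a stress-induced regulator of cell growth, and Bax, which promotes cell death, had log2 fold changes of 0.39 and 0.34 (SE 0.05 and 0.06).

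Markers of cell types moved beside the members, and their part in these results was not tested. The table held 8 of 16 cardiomyocyte markers, 3 higher and 5 lower, with a summed level of 23758 to 25020.3 FPKM with ARVs and 27458 to 28736 with DMSO. With median-ratio factors, 2 of the 5 lower markers, Myl3 and Tnnc1, were above 0. Myh7 and Pln, of the sarcomere and the calcium store, had log2 fold changes of 0.51 and 0.38, and Myh6, another myosin heavy chain, had -0.88. Nppa, with the most normalized read counts of the 8 (means of 255745 with ARVs and 311817 with DMSO), had -0.29. A summed level leans on the genes with the highest levels. All 7 listed markers of smooth muscle cells and pericytes, of 10, were lower, with summed levels of 3006 to 3404 FPKM with ARVs and 4193 to 4894 with DMSO. Of 12 fibroblast markers 6 were listed, 3 higher and 3 lower, at 1464 to 1509 and 1535 to 1624 FPKM (ARVs and DMSO). The 4 listed macrophage markers, of 14, were 3 higher and 1 lower and summed to 51.1 to 54.9 and 38.8 to 43.5 FPKM (ARVs and DMSO). Among them Adgre1 had a log2 fold change of 1.22 (SE 0.20) and Cd74 one of -1.68 (SE 0.39). Cd74 had few reads: 6.19, 10.9 and 5.62 normalized read counts with ARVs, against 31.6, 18.3 and 24.8 with DMSO. The 2 listed endothelial markers, of 10, were Tek, with a log2 fold change of 0.57, and Flt1, with -0.39, and summed to 7.10 to 8.06 and 5.87 to 6.45 FPKM (ARVs and DMSO). No listed marker was at 0 in all libraries, and markers outside the table were not analysed here.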

How the data were processed

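RNA of NRVCs treated with ARVs or DMSO was sequenced by the authors, 3 libraries per group. Per the file headers, the deposited table holds raw read counts per gene, the signal made by dividing each count by 1 size factor per library, and FPKM. The authors aligned reads to release 97 of the rat genome (HISAT2) and built transcripts with StringTie 1.3.3b; the counting program and strand setting are not given in the sources used here. The deposited log2 fold changes and p-values of the authors' own comparison were not used. Raw counts were tested in R 4.3.3 with edgeR 4.0.16 (filterByExpr, which removed 5 genes, glmQLFit and glmQLFTest) at an adjusted p of 0.05. The authors' size factors were used, since TMM and median-ratio factors assume that most genes do not change and the table holds only called genes. Standard errors came from the fold change and the F value. The test was also run on simulated counts in which most genes did not change. The table holds only called genes, so that run does not bear on the p-values given here.

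The genes and the 16 lists were chosen with earlier results of these data known. Genes named are the 5 members, all listed genes of lists with 8 or fewer in the table and otherwise the 6 with the smallest p, and the 3 genes most alike to each member; others are said to be named after their values were seen. A few genes that this rule names are not reported here. Alternatives were TMM or median-ratio factors, totals from FPKM, DESeq2 1.42.0, limma 3.58.1 on log2(FPKM + 1) and log2(FPKM + 0.1), a threshold of 0.01, a minimum of 10 counts in every library, no filter, each library left out, and the replicate number as a block. Ratios used counts plus 0.5.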

Additional observations from a re-analysis of the deposited data

How the results depend on the processing

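Myc, Npm1, Mybbp1a and Tcof1 stayed higher and past the threshold under all 16 alternatives, with log2 fold changes of 0.57 to 0.87, 0.18 to 0.39, 0.19 to 0.42 and 0.20 to 0.45. The alternatives called 626 to 701 of the listed genes higher and 536 to 1055 lower, against 699 and 1052 in the main fit. The listed genes had been called by the authors on these same libraries, so staying past the threshold says little about the 5 genes in particular. Rrp1b stayed lower in all 16 (-0.33 to -0.10) and past the threshold in 15; with median-ratio factors it was -0.10 (adjusted p = 0.219, edgeR), so 0 of the 5 genes were then called lower. Leaving out each library in turn gave 0.57 to 0.80 for Myc, 0.18 to 0.21 for Npm1, 0.19 to 0.25 for Mybbp1a, 0.20 to 0.28 for Tcof1 and -0.33 to -0.28 for Rrp1b. Median-ratio factors moved all log2 fold changes up by a median of 0.199 and called 699 genes higher and 536 lower (56.6% of calls higher, against 39.9% with 699 and 1052), and TMM moved them up by 0.0955. With median-ratio factors, the genes called lower numbered 0 of large subunit assembly, 0 of cytosolic ribosomal proteins, 1 of mitochondrial ribosomal proteins, 3 of Myc partners and regulators, 1 of translation factors, 2 of cardiomyocyte markers, 1 of fibroblast markers and 0 of endothelial markers. With TMM they numbered 0 of cytosolic ribosomal proteins and 3 of cardiomyocyte markers. With at least 10 counts in every library, 0 macrophage markers were called lower, since Cd74 was then not tested. The replicate numbers were not taken as pairs: the deviations of libraries with the same number correlated by -0.0065, 0.244 and 0.0665 across genes, and not every library correlated best with its own number. With the replicate block, the log2 fold changes were 0.69 for Myc, 0.20 for Npm1, 0.22 for Mybbp1a, 0.25 for Tcof1 and -0.30 for Rrp1b, and no call changed. With 3 libraries per group and 328 to 743 Myc reads per library, counting error of Myc was smaller than its spread between the DMSO libraries.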

Other observations

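Genes whose values over the 6 libraries ran closest to each member were found by the root mean square difference of log2(normalized read count + 1), each gene centred on its own mean, over 1712 other listed genes that averaged 50 counts or more. The 3 closest to Myc were Cacna1g, Kcng2 and Bckdha, with differences of 0.0638, 0.0732 and 0.0743, where the median gene differed from Myc by 0.497. For Npm1 they were Use1, Eprs and Polr2e (0.0126, 0.0145 and 0.0155), and for Mybbp1a Ptprs, LOC681410 and Dlgap4 (0.00812, 0.012 and 0.0172). For Tcof1 they were Slc25a39, Ipo4 and Loxl3 (0.0297, 0.0336 and 0.0353), and for Rrp1b Ecsit, Aaas and Ptcd3 (0.024, 0.0277 and 0.0279). These are descriptions over genes that had been chosen for a difference between the groups.

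Among promoters of the ribosome production genes in the 4 lists, in the table or not, CACGTG was found in 48 of 166 (28.9%), and in 5 of the 11 that were in the table. Those 5 were Mybbp1a, Aatf, Exosc5, Nol6 and Wdr46. In Aatf, Exosc5 and Nol6 the motif began at positions -173, -44 and -2 relative to the start site, and in Wdr46 at position 24. Each of these 5 genes was higher with ARVs, where 9 of the 11 genes were. Rrp1b and Ngdn, the genes of these lists that were lower, held no CACGTG in the window. Npm1, Tcof1, Polr2e and Nop53 were also higher and held no CACGTG. The variant CACGCG was found in 4 of the 11 promoters, that of the lower gene Rrp1b among them, and in 46 of the 166 (27.7%). A link of either motif to the direction of change was not tested. CACGTG was found in 66 of 552 promoters of genes called higher and in 73 of 880 of genes called lower, with a median GC content of 62.3% and 60.3%, and in 5 of 67 promoters of cytosolic ribosomal proteins (7.46%). No test was run on these counts.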
